A study of Homo sapiens with 6 samples.

Results

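The Tribbles pseudokinase genes TRIB1, TRIB2 and TRIB3 are described here in the lung adenocarcinoma line PC9 (human, non-small cell). Untreated cultures are set beside separate cultures kept in erlotinib, an inhibitor of the EGFR kinase. The members were the rows of the gene count table that carry these symbols, 3 of 36459 gene symbols, together with their transcripts. They were selected on their counts in these libraries, so their differences between parental and persister cells are given as a description with no test. Poly-A RNA was sequenced from 3 libraries of parental cells, which were untreated, and from 3 libraries of persister cells, which had survived 6 days in 15 µM erlotinib. Per the methods of the study, the parental libraries came from 3 independent cultures, and the persister libraries were pooled from 9 independently cultured replicates. All libraries come from 1 cell line.

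The 3 members did not go the same way. TRIB2 was at 0.899 ± 0.0857 CPM (read counts scaled to the size of the library; SD, n = 3) in persister cells against 17.4 ± 0.504 in parental cells, a level 19.3-fold lower. TRIB3 was at 146.6 ± 1.90 CPM against 63.9 ± 6.63, a level 2.30-fold higher. TRIB1 was at 37.4 ± 1.15 CPM against 40.9 ± 2.20, and its libraries overlapped between the conditions.

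Tribbles proteins have the fold of a protein kinase but bind ATP weakly or not at all, and act as scaffolds. The pseudokinase domain holds a substrate, and the C-terminal tail holds the ubiquitin ligase COP1, so that the substrate is marked for degradation. The tail also carries a site for MEK kinases of the ERK pathway. TRIB1 and TRIB2 are best known for the COP1-dependent loss of the transcription factor C/EBPα, and TRIB2 has been described as an oncogene in lung cancer and melanoma. TRIB3 is a target gene of the transcription factors ATF4 and CHOP in the response to amino acid shortage and endoplasmic reticulum stress, and its protein can bind ATF4 and the kinase AKT in turn.

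The libraries held between 29476725 and 34893782 gene counts. Among the 14626 genes with enough counts to test, 8307, or 56.8%, were called different between the conditions in the quasi-likelihood fit of edgeR at a Benjamini-Hochberg adjusted p under 0.01. Of all genes tested, 28.7% were called higher and 28.1% lower in persister cells, the libraries of the conditions did not overlap for 71.3%, and the median log2 fold change was -0.006. Of 8 markers of lung adenocarcinoma epithelium 7 were at 1 CPM or more in every library, and the lineage factor NKX2-1 was at or near 0. The summed level of the list ran from 8145 to 8641 CPM in parental and from 6835 to 7179 CPM in persister libraries. Its genes went both ways. KRT8, KRT18, KRT19 and EPCAM were called lower, with log2 fold changes of -0.8, -0.92, -1.03 and -0.18. KRT7, CDH1 and EGFR were called higher, with 0.46, 0.6 and 0.5. Of 9 leukocyte, endothelial and fibroblast markers, CD68 and COL1A1 reached 1 CPM in every library, CD3E was at 0 in all, and PTPRC, COL1A2 and DCN were near 0. Their summed level ran from 89.6 to 92.0 CPM in parental and from 47.4 to 53.8 CPM in persister libraries, made up mostly of CD68 and COL1A1. The markers did not move together. The macrophage marker CD68 (74.8 ± 0.912 to 21.1 ± 1.62 CPM) and the endothelial marker PECAM1 (4.37 ± 0.394 to 0.214 ± 0.0873) were called lower, whereas the fibroblast markers COL1A1 (10.2 ± 0.340 to 28.2 ± 1.79) and PDGFRB (0.363 ± 0.0985 to 1.04 ± 0.389) were called higher. Their part in the results was not tested.

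The proteins encoded by the dominant transcripts have 372 (TRIB1), 343 (TRIB2) and 358 (TRIB3) residues. TRIB1 and TRIB2 were the closest pair, with 205 of 336 aligned residues identical (61.0%). TRIB3 shared 47.5% of aligned residues with TRIB1 and 49.6% with TRIB2. The Ser-Leu-Glu triplet that takes the place of the Asp-Phe-Gly motif of active kinases occurred once in TRIB1 and once in TRIB2 and was not found in TRIB3. The letters Asp-Phe-Gly were also found once in TRIB1, at a place not examined further, and not in TRIB2 or TRIB3. Despite this likeness of the proteins, no word of 31 bases in the annotated transcripts of a Tribbles gene occurred in another Tribbles gene or in any other gene, on either strand, among 4096 words of TRIB1, 4594 of TRIB2 and 3249 of TRIB3. Reads that hold such a word could therefore be told apart between the members.

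The ends of the coding sequences of TRIB2 and TRIB3 are shown because they hold both docking sites and because these genes had the largest differences of the family. Capitals mark, in order from 5′ to 3′, the codons of the MEK-binding box (His-Pro-Trp followed by Phe in TRIB2 and by Leu in TRIB3) and of the COP1-binding motif (Val-Pro-Asp). Each is the last 150 coding bases before the stop codon in the GENCODE 44 annotation of GRCh38, on the plus strand, at chr2:12740642-12740791 for TRIB2 and chr20:396538-396687 for TRIB3.
TRIB2 coding tail: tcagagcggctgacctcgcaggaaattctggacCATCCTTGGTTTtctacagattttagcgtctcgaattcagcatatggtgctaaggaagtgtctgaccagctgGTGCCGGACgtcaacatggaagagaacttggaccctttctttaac
TRIB3 coding tail: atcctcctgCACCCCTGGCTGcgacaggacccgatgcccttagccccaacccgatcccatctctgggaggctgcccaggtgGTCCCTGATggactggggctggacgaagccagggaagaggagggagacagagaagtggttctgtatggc
In TRIB2 the box began 39 codons and the COP1 motif 15 codons before the stop codon. In TRIB3 they began 47 and 23 codons before it, so both sites lie further from the end of the protein. TRIB1 had the same layout as TRIB2, with the box at 38 codons and the COP1 motif at 15 codons.

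TRIB2 (ENSG00000071575, chr2:12716910-12742734, plus strand) was the member with the largest difference. Its counts were 585, 584 and 604 in parental replicates 1, 2 and 3 and 29, 26 and 30 in persister replicates 1, 2 and 3. After scaling by TMM, which corrects for library size and composition, these were 17.0, 17.2 and 17.9 CPM in parental and 0.993, 0.826 and 0.878 CPM in persister libraries. All persister libraries were far below all parental ones, and within each condition the libraries lay close together. A lack of overlap between the conditions was common, at 71.3% of all genes tested. The log2 fold change of persister against parental cells was -4.27 (SE 0.102), which left 5.18% of the parental level. That SE is derived from the test statistic and understates the uncertainty of so large a fold at such low persister counts. TRIB2 stood at place 21 from the bottom when the 14626 genes tested were ordered by log2 fold change. The signal was low but not lost. The exact 95% Poisson intervals of the persister counts ran from 19.4 to 41.7, from 17.0 to 38.1 and from 20.2 to 42.8, and cover counting error only. In bulk RNA, fewer cells that express a gene and less RNA per cell cannot be told apart.

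**Figure D1:**
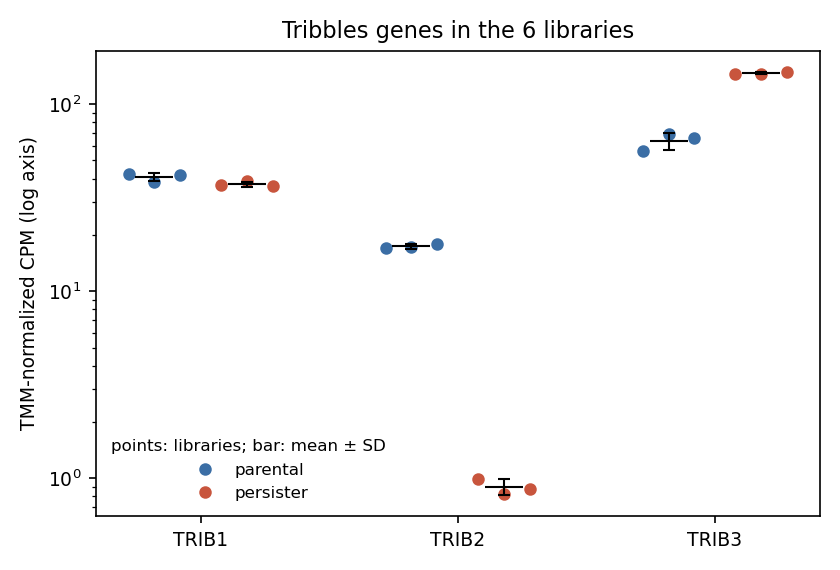
TMM-normalized CPM (log axis) of TRIB1, TRIB2 and TRIB3 in the 3 parental (blue) and 3 persister (red) libraries, with points for libraries and bars for mean ± SD. TRIB2 lies between 17.0 and 17.9 CPM in parental and below 1 CPM in persister libraries, TRIB3 is higher in every persister library, and TRIB1 overlaps.

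The RefSeq promoter table held 1 window for TRIB2, and its part upstream of the annotated gene is shown. It lies at chr2:12716686-12716909 on the plus strand of GRCh38.p14, and capitals mark the 1 match found among the motifs searched.
TRIB2 promoter: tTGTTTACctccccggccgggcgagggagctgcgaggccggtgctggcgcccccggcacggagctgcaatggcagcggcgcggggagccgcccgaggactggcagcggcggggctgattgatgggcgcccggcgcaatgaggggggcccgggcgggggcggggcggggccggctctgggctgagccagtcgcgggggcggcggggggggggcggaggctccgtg
The match is the forkhead word GTAAACA on the minus strand, 249 bases before the start in the table. The same word occurred on either strand in 1202 of 35116 promoter windows of 300 bases (3.42%). The C/EBP-ATF word TGATGNAA (3.62% of windows), the CRE TGACGTCA (1.85%), the AP-1 word TGANTCA (7.71%) and the ETS word CCGGAAGT (4.14%) were not found in this window. None of the 5 words occurred in the 3 windows listed for TRIB3, but the first of these is built on a start 535 bases downstream of the start of the dominant TRIB3 transcript, so that none covers its promoter. A match of letters is a description and not a site of binding.

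TRIB3 (ENSG00000101255, chr20:362835-397559, plus strand) was higher in persister cells. Counts were 1941, 2351 and 2225 in the parental and 4253, 4574 and 5084 in the persister replicates. This gave 56.4, 69.1 and 66.1 CPM in parental and 145.7, 145.3 and 148.8 CPM in persister libraries. The lowest persister library was above the highest parental one, and 71.3% of all genes tested likewise had no overlap between the conditions. The log2 fold change was 1.20 (SE 0.064), which put TRIB3 at place 659 from the top among the 14626 genes tested.

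The parental libraries of TRIB3 differed among themselves more than those of the median gene at its level. Their coefficient of variation was 10.4%, against a median of 4.24% over genes within 1.5-fold of its level. In persister cells it was 1.30%, against 2.64%. The persister libraries were pooled from 9 cultures and the parental ones were not pooled, so these spreads are not alike in kind. Parental replicate 1 was the lowest library at 56.4 CPM. That library was also the lowest of the 3 parental ones for 7 of 15 stress-response genes listed around TRIB3 (described further on), and for 38.7% of all genes tested. For TRIB2 the coefficients were 2.90% in parental and 9.53% in persister libraries, both below the medians of genes at its levels (5.75% and 18.8%). The persister value rests on counts of 29, 26 and 30, where counting error is large. It is therefore not read as a trait of the gene. For TRIB1 they were 5.39% and 3.07% against 4.63% and 3.46%.

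TRIB1 (ENSG00000173334, chromosome 8, 125430358 to 125438403, plus strand) was nearly level. Counts were 1458, 1305 and 1411 in the parental and 1084, 1216 and 1243 in the persister replicates. On the CPM scale the parental libraries were at 42.4, 38.3 and 41.9 and the persister libraries at 37.1, 38.6 and 36.4. Persister replicate 2 was above parental replicate 2, so the groups overlapped. The log2 fold change was -0.13 (SE 0.052), and the persister mean was 91.4% of the parental mean.

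To compare the genes with each other, CPM were divided by the mean annotated length of each gene's transcripts weighted by their counts, 3480 bases for TRIB1, 4074 for TRIB2 and 2347 for TRIB3. On this scale TRIB3 was the highest and TRIB2 the lowest member in all 6 libraries, with no overlap between members. In parental cells the levels were 27.2 ± 2.82 CPM per kilobase for TRIB3, 11.7 ± 0.633 for TRIB1 and 4.26 ± 0.124 for TRIB2. In persister cells they were 62.5 ± 0.809 for TRIB3, 10.7 ± 0.330 for TRIB1 and 0.221 ± 0.0210 for TRIB2. Among the 13666 genes ranked on this scale, TRIB3 stood at place 3013 in parental and 1273 in persister cells. TRIB1 stood at places 5792 and 6111. TRIB2 stood at places 9012 and 12941, in persister cells near the bottom of the genes ranked. Only genes with enough counts to test were ranked, so genes with few counts in both conditions are left out.

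The makeup of the family therefore differed as well as its sum. The summed level was 43.2 ± 2.46 CPM per kilobase in parental and 73.4 ± 0.562 in persister cells. TRIB3 made up 62.9% ± 3.20 of it in parental and 85.1% ± 0.517 in persister cells. The share of TRIB1 was 27.3% ± 2.75 in parental and 14.6% ± 0.524 in persister cells, although its own level was nearly equal. TRIB2 made up 9.88% ± 0.452 in parental cells and 0.301% ± 0.0298 in persister cells. The ratio of TRIB1 to its closest relative TRIB2 was 2.76 ± 0.152 in parental and 49.0 ± 5.51 in persister cells. The ratio of TRIB3 to TRIB1 was 2.33 ± 0.349 and 5.82 ± 0.244.

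**Figure D2:**
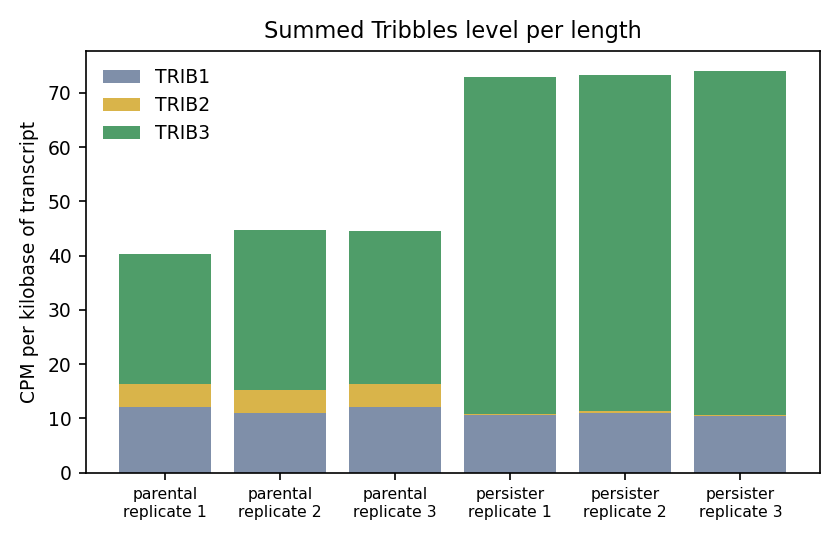
Level per length (CPM per kilobase of transcript) of TRIB1, TRIB2 and TRIB3, stacked for each of the 3 parental and 3 persister libraries. The sum has a mean of 43.2 in parental and 73.4 in persister libraries, TRIB3 makes up most of every bar, and the TRIB2 layer is barely visible in persister libraries.

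In most libraries 1 transcript carried most of a gene's counts, and TRIB2 in persister replicate 3 was the exception. TRIB3-201 (ENST00000217233.8, 4 exons, 2356 bases) held 99.1% ± 0.282 of the TRIB3 transcript counts in parental and 99.4% ± 0.0681 in persister cells. Its counts were 1920, 2325 and 2212 against 4222, 4546 and 5053, so the difference of the gene was that of its full-length transcript. TRIB3-203, the next, had 10, 23 and 10 counts in parental and 18, 22 and 24 in persister libraries. TRIB3-202 and TRIB3-204 had at most 11 counts in any library.

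TRIB1-201 (ENST00000311922.4, 3 exons, 3596 bases) held 94.1% ± 1.43 of the TRIB1 counts in parental and 95.6% ± 1.01 in persister cells, and the libraries overlapped. The shorter TRIB1-202, with 141 codons, held 4.90% ± 1.07 and 3.24% ± 1.66. TRIB1-203 was uneven, with 38, 0 and 0 counts in the parental and 0, 20 and 17 in the persister replicates. The counts of 0 allow shares of up to 0.277% of the gene's counts.

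TRIB2-201 (ENST00000155926.8, 3 exons, 4344 bases), which encodes the full protein, had 524, 496 and 477 counts in parental and 29, 24 and 14 in persister libraries. TRIB2-202 (ENST00000381465.2, 2778 bases), whose 207 codons lack part of the protein, had 52, 85 and 123 counts in parental and 0, 0 and 13 in persister libraries. Both were thus much lower in every persister library. Shares could not be compared, since all persister TRIB2 transcripts together had 85 counts. The share of TRIB2-201 was 84.5% ± 5.32 in parental and 79.7% ± 28.8 in persister cells, where it was the whole in replicate 1, 92.3% in replicate 2 and 46.7% in replicate 3. The difference of the means, persister minus parental, was -4.88 percentage points with all libraries and 11.6 without persister replicate 3. TRIB2-203 had no count in persister libraries, which allows shares of up to 10.3%, 11.5% and 10.0%.

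**Figure D3:**
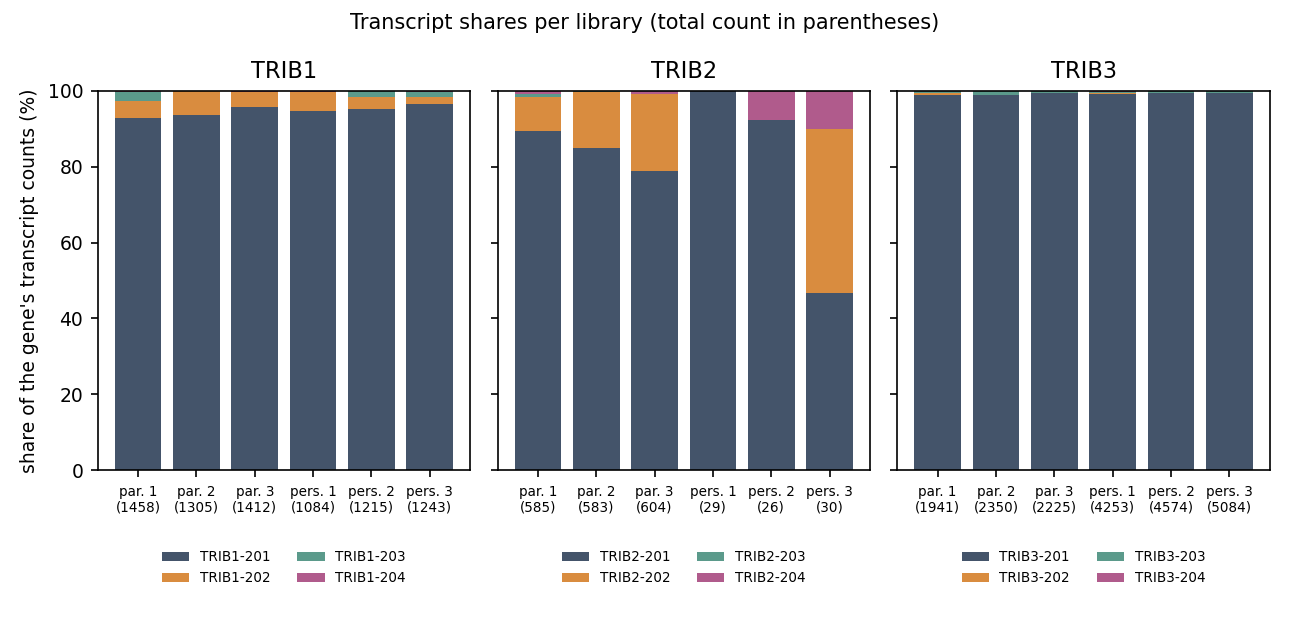
Share of each annotated transcript in the transcript counts of TRIB1, TRIB2 and TRIB3 (percent), in 3 parental (par.) and 3 persister (pers.) libraries, with the gene's total count in parentheses. One transcript dominates throughout, except in persister replicate 3 for TRIB2, where the total is 30 counts.

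Genes listed around the Tribbles proteins were counted next, each list by its calls in the same edgeR fit and by its median log2 fold change, beside 28.7% of all genes called higher, 28.1% called lower and a median of -0.006. The lists were written with earlier results of these data known, and no list was tested as a set.

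Of 7 genes of the COP1 ligase and the Tribbles-related kinase STK40, 2 were called higher, 2 lower and 3 neither way, and the median was -0.01. COP1 itself was at 46.5 ± 1.14 CPM in parental and 44.2 ± 0.280 in persister cells, and its log2 fold change of -0.07 (SE 0.042) was not called (edgeR quasi-likelihood, Benjamini-Hochberg adjusted p = 0.136). STK40, a pseudokinase that also binds COP1, rose from 65.3 ± 5.23 to 89.0 ± 2.02 CPM, or by 0.45 on the log2 scale (adjusted p from edgeR = 3.47e-05). The adaptor DET1 fell from 4.35 ± 0.714 to 2.87 ± 0.447 CPM, the adaptor DDB1 rose by 0.14 and the scaffold CUL4B fell by 0.13 on the log2 scale. These last 3 calls were near the limit. DET1 was not called without parental replicate 2, persister replicate 2 or persister replicate 3 (edgeR adjusted p from 0.0172 to 0.0279). DDB1 was not called without any single library other than parental replicate 2, or with upper quartile or library size scaling. CUL4B was not called without parental replicate 1 or 3 or persister replicate 2 or 3, or when no filter on low counts was used.

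Of 18 proteins described as binding partners or substrates of Tribbles, 4 were called higher, 5 lower and 9 neither way, with a median of -0.01. The transcription factors C/EBPα and C/EBPβ were among those not called. CEBPA was at 8.20 ± 1.00 CPM in parental and 9.20 ± 0.475 in persister cells, and CEBPB at 118.5 ± 11.4 and 112.6 ± 2.29. MAP2K1, which encodes MEK1, had a log2 fold change of -0.05 and FOXO3 one of 0.06, neither called. AKT1 rose by 0.31 on the log2 scale, from 126.3 ± 8.64 to 156.3 ± 6.46 CPM. SQSTM1, which encodes the autophagy receptor p62, rose from 649 ± 19.1 to 1073 ± 30.0 CPM (edgeR adjusted p = 3.05e-08). The acetyl-CoA carboxylases went apart. ACACA, the enzyme of cytosolic fatty acid synthesis, fell from 191.9 ± 5.56 to 116.6 ± 2.96 CPM, whereas ACACB, its mitochondrial relative, rose from 9.78 ± 0.185 to 17.3 ± 0.310 CPM. PPARG, a nuclear receptor of lipid storage, fell from 49.1 ± 1.27 to 25.4 ± 0.242 CPM.

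Of 15 genes of the stress-response circuit in which TRIB3 sits, 11 were called higher, 0 lower and 4 neither way, with a median log2 fold change of 0.69 and a range from -0.06 to 2.71. The count of 0 was from edgeR, and DESeq2 and limma voom also called 0 of these genes lower. At an unadjusted p under 0.05, 0 were lower by any of these tools. ATF4, the factor that induces TRIB3, rose little at the RNA level, from 507 ± 6.32 to 589 ± 17.7 CPM (log2 fold change 0.21). By western blot, the paper reports more ATF4 protein in PC9 persister cells than in parental ones, which RNA counts do not measure. DDIT3, which encodes CHOP, rose from 5.35 ± 0.452 to 13.5 ± 0.1995 CPM, or by 1.34 on the log2 scale (adjusted p from edgeR = 1.1e-07). ATF3, another factor of this response, rose by 1.60 and ASNS, asparagine synthetase, by 1.09 on the log2 scale. CHAC1, a glutathione-degrading enzyme, rose by 2.71 on the log2 scale, the most of the list. The TRIB3 difference of 1.20 lay within this range, which is wide and reaches values near 0, so this is a description only.

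Of 17 genes that depend on ERK signalling or feed back on it, 14 were called lower, 2 higher and 1 neither way, with a median of -1.42 and a range from -3.86 to 0.29. DUSP6, a phosphatase of ERK, fell from 20.0 ± 0.871 to 1.56 ± 0.181 CPM, or by 3.68 on the log2 scale (adjusted p from edgeR = 2.22e-10). PHLDA1 fell by 1.88, and the ETS factors ETV4 and ETV5 by 1.46 and 0.77 on the log2 scale. The 2 genes called higher were FOSL1, a subunit of AP-1, with a log2 fold change of 0.27, and IER3 with 0.29. The TRIB2 value of -4.27 lay below the lowest of these genes.

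**Figure D4:**
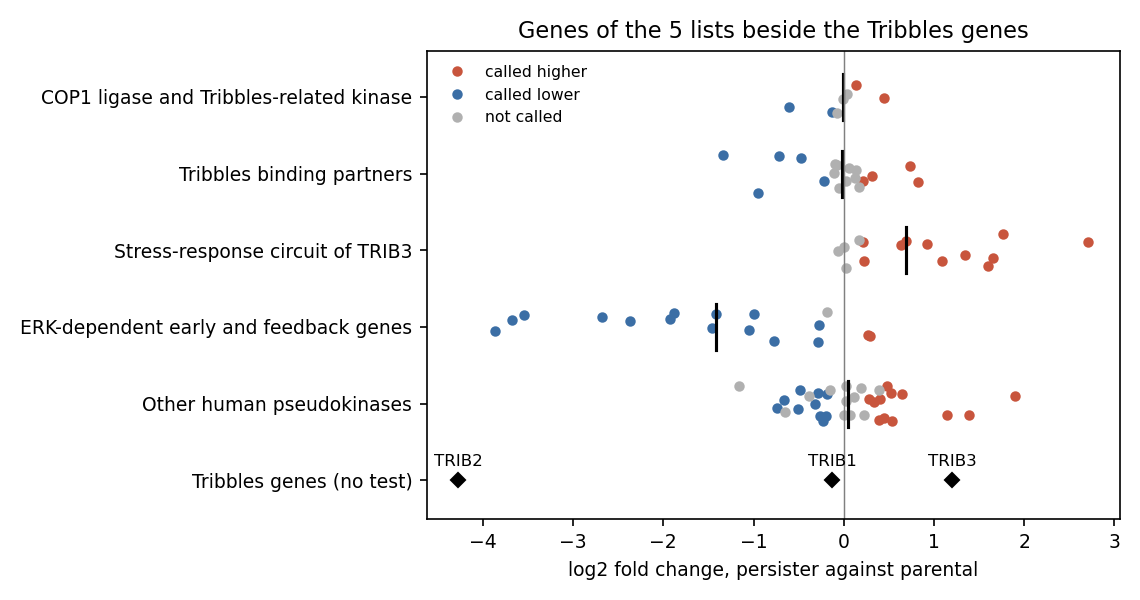
Log2 fold change of persister against parental cells for the tested genes of 5 lists (points, coloured by the edgeR call at an adjusted p under 0.01) and for TRIB1, TRIB2 and TRIB3 (diamonds, no test), with a black bar at each list's median. The medians are 0.69 for the stress-response circuit, -1.42 for the ERK list and between -0.01 and 0.05 for the other lists.

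The genes most like each member were sought over 12283 genes with a mean log2 CPM above 1, as those with the smallest root mean square difference of mean-centred log2 CPM over the 6 libraries. For TRIB2 these were MILR1 (0.1998), ALDH1A1 (0.227) and ETV1 (0.248), with log2 fold changes of -3.94, -4.12 and -3.86. Only 1 gene lay within 0.2 of TRIB2. The distance is absolute on the log2 scale, so this number depends on the size of the fold and on counting error as well as on likeness. For TRIB3 the nearest were AJUBA (0.0252), COL4A6 (0.0325) and CAVIN1 (0.0365), out of 457 genes within 0.2. For TRIB1 they were AMD1 (0.0128), FAM49B (0.0165) and SH3BGRL (0.0166), out of 6677 within 0.2, as many genes were nearly level. With 2 conditions, this likeness reflects mostly the difference between them.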

How the data were processed

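The authors made poly-A libraries with TruSeq chemistry and pseudoaligned reads to Ensembl transcripts of GRCh38 with kallisto 0.46.1. They deposited whole-number estimated counts, not normalized, for gene symbols and for transcripts. The submitters' processing notes also name sleuth 0.30.0. Kallisto divides reads among similar transcripts by estimation and this uncertainty enters no value here. The study's test, Sleuth, needs kallisto's repeated estimates, which were not used here, so edgeR took its place. Groups and replicate numbers came from the sample labels, whereas dose, time and culture numbers are those of the paper's methods. The 3 members and the gene lists were chosen with earlier results of these data known.

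Gene counts were filtered with filterByExpr, scaled with TMM and fitted by glmQLFit and glmQLFTest (edgeR 4.0.16, R 4.3.3) over all 14626 genes tested, with no block. Calls were made at a Benjamini-Hochberg adjusted p under 0.01. Standard errors of log2 fold changes were computed as |log2 fold change| / √F, with F the quasi-likelihood statistic. These can be too small for a large fold change at low counts, as for TRIB2. The spread between 3 libraries per group sets the precision of means, and p-values measure only that spread. For persister cells it is a spread between pools of cultures. In simulated counts of 14626 genes, 200 of them changed by a log2 fold change of 1, 90.5% of the changed genes were recovered and 1.09% of calls were wrong. The simulation gave every gene the same fixed dispersion and changed few genes, whereas 56.8% of genes were called in the data. Its rates therefore do not carry over to the calls reported here.

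Lengths, coordinates and coding sequences came from GENCODE 44. Of 188753 transcripts 167067 were matched, with 95.8% of transcript counts. For protein identities, the coding sequences were translated and the proteins aligned over their full length with Biopython 1.88. Promoters came from RefSeq and matched 2 of the 3 members. A share limit for a count of 0 corresponds to 3 counts. Named genes were the members and their transcripts, 15 fixed list genes, up to 2 rising and 2 falling called genes per list with the smallest p-values, and the 3 nearest profiles per member. Alternatives were DESeq2 1.42.0, limma 3.58.1 voom, other scalings, no filter, gene counts summed from transcripts, the longest transcript for length, counts per kilobase for shares, a replicate block and leaving out each library. Figures were drawn with matplotlib 3.10.9.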

Additional observations from a re-analysis of the deposited data

How the results depend on the processing

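Each processing choice was changed in turn. At the adjusted p limit of 0.01 the number of genes called ran from 7054 to 8671, and at a limit of 0.05 it was 9931. The log2 fold changes of the members kept their direction under every alternative run. With each library left out in turn they ran from -0.17 to -0.10 for TRIB1, from -4.34 to -4.21 for TRIB2 and from 1.12 to 1.26 for TRIB3. With scaling by library size only they were -0.18, -4.32 and 1.15, and with upper quartile scaling -0.17, -4.31 and 1.16. DESeq2 gave -0.13, -4.27 and 1.20. Of the 7 genes around COP1, 4 were called with all libraries and between 1 and 3 with a library left out. The share of TRIB1-201 was 1.47 percentage points higher in persister cells, or 2.93 when counts were divided by transcript length. Of 405 values of the 29 named list genes under alternatives, 390 kept their call and direction and 15, all of DET1, DDB1 and CUL4B, kept their direction but lost the call. The genes nearest to each member in profile were not refitted by name.

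Libraries with the same replicate number shared little common deviation, with correlations of 0.124, 0.024 and 0.022 for numbers 1, 2 and 3. Correlations between unlike numbers ran from -0.117 to 0.097. Not every library correlated best with its own number, so the numbers were not taken to pair the libraries. With a replicate block 8671 genes were called, against 8307 without it, and the members stood at -0.13, -4.27 and 1.20. Depth limits the transcripts of TRIB2 in persister cells, where all of them together had 85 counts.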

Other observations

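Of 40 other human pseudokinases 34 had enough counts to test, of which 12 were called higher, 10 lower and 12 neither way in persister cells, with a median log2 fold change of 0.05 and a range from -1.16 to 1.90. These shares, 35.3% and 29.4%, stand beside 28.7% and 28.1% of all genes. ERBB3, the receptor partner of EGFR and ERBB2, fell from 208.4 ± 1.37 to 124.7 ± 1.78 CPM, a log2 fold change of -0.74 (edgeR's quasi-likelihood test, Benjamini-Hochberg adjusted p = 1.33e-08). SCYL3 fell by 0.66 on the log2 scale. ROR1, a Wnt receptor, rose from 21.1 ± 0.581 to 33.0 ± 0.583 CPM, and NRBP1, a pseudokinase related to vesicle traffic, rose by 0.48 on the log2 scale. ROR2, PEAK3, IRAK3, CAMKV, PSKH2 and FAM20A had too few counts to test.

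Tested genes near each member along the chromosome, named after their values were seen, are given beside it. NRSN2, 3.18 kb before TRIB3, had a log2 fold change of -0.40 and RBCK1, 9.94 kb after it, one of -0.11 that was not called, against 1.20 for TRIB3. TBC1D20, 26.0 kb after TRIB3, and SOX12, 32.6 kb before it, were called higher, with log2 fold changes of 0.34 and 0.20. LPIN1, 889.5 kb before TRIB2, had a log2 fold change of -0.35 against -4.27 for TRIB2, and NBAS, 2424 kb after it, one of -0.23. LPIN1 and NBAS were called lower. GREB1, 1074 kb before TRIB2, and DDX1, 2848 kb after it, had values of 0.06 and 0.05 and were not called. NSMCE2, 63.2 kb before TRIB1, had one of -0.42, called lower, against -0.13 for TRIB1. WASHC5 before TRIB1 and POU5F1B after it had 0.1 and -0.35, neither called. MYC, 2297 kb after TRIB1, was called higher at 0.16.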
